A study of Mus musculus with 34 samples.

Results

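The genes described here are 37 lysosomal genes measured in mouse brain cortex: soluble hydrolases, their cofactors, proteins of the lysosomal membrane, and Tfeb, a transcription factor of lysosomal genes. They were taken by gene symbol from the deposited count table, in which each symbol matched 1 of 55385 listed genes. All 37 were among the 17632 genes that passed the filter on low counts, so no member was lost to it. None lies on chromosome 16, part of which is duplicated in Dp16 mice. The members comprise 10 proteases, 8 glycosidases, 3 sulfatases, 4 lipid hydrolases, 3 cofactors and carriers, 8 membrane proteins and 1 transcription factor.

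Brain cortex from 34 mice, all 6 months old, gave 1 poly-A RNA library each (the series text counts mice), in 4 genotypes that each received tofacitinib or sham. The genotypes were wild type (C57BL/6J, WT below), Dp16, 5xFAD and 5xFAD-Dp16, which carries both. As background, 5xFAD mice carry transgenes driven by the Thy1 promoter, which is active mainly in neurons, and form amyloid plaques; Dp16 mice carry an extra copy of a stretch of chromosome 16 and serve as a model of Down syndrome. Tofacitinib, an inhibitor of Janus kinases, was given by daily oral gavage at 15 mg/kg for a month, and sham mice received 0.5% methylcellulose. The p-values measure the spread between these libraries. The analysed libraries numbered 5 WT sham, 5 WT tofacitinib, 3 Dp16 sham, 5 Dp16 tofacitinib, 4 5xFAD sham, 5 5xFAD tofacitinib, 3 5xFAD-Dp16 sham and 4 5xFAD-Dp16 tofacitinib, from 16 females and 18 males. There were thus 16 carriers of 5xFAD and 18 non-carriers. The submitters count 6 mice in the 5xFAD tofacitinib group, of which 5 were analysed here, and 4 in 5xFAD-Dp16 sham, of which 3 were.

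Lysosomes break down proteins, glycans and lipids with acid hydrolases that are made in the endoplasmic reticulum and sorted through the Golgi apparatus. A proton pump keeps the lumen acidic, and heavily glycosylated membrane proteins line its wall. TFEB moves to the nucleus when mTORC1 is inactive and binds a short promoter element in many lysosomal genes. In brain, microglia are rich in several cathepsins and in Cd68, and inherited loss of many of these genes causes lysosomal storage disease with neurodegeneration.

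Library totals ran from 16029841 to 21388650 reads assigned to genes. Levels are given as CPM, the usual library-scaled counts, adjusted by TMM for composition. The labels were checked with Thy1, whose promoter drives the 5xFAD transgenes: its level was 1427 to 2572 CPM in the 16 carriers and at most 952 CPM in the 18 non-carriers. Brwd1, a gene of the duplicated segment, lay at 94.1 to 107 CPM in the 15 mice with Dp16 and at 52.2 to 67.1 CPM in the other 19. Several libraries stood apart in tissue markers. Library 2 of the 5xFAD tofacitinib group had the lowest summed level of 5 cortex markers (108 CPM, with a median of 377.6 CPM in its group) and of 7 neuron markers (4046 CPM), and the highest of 5 choroid plexus markers (1499 CPM) and of 7 oligodendrocyte markers (14171 CPM). Library 2 of the WT sham group lay at an extreme of the first 2 principal components. Results were therefore also computed without both libraries. Choroid plexus markers, with a median of 19.6 CPM over all libraries, were also high in Dp16 sham 1 (967 CPM), 5xFAD-Dp16 tofacitinib 3 (511 CPM) and WT tofacitinib 2 (428 CPM), and at most 264 CPM in the 30 libraries beside these 4. A fit without the 4 was added after the data were seen. Summed striatal markers ranged from 324 to 2259 CPM over all libraries. In bulk tissue a change in the number of cells that express a gene and a change in RNA per cell cannot be told apart.

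Promoters of 4 members are shown to set the core of the TFEB element beside the RNA values. They are those of the 3 members with the smallest adjusted p for 5xFAD (Grn, Cd68 and Ctsd) and that of Lamp1. Lamp1 carries the core most often of the members matched, and its estimated 5xFAD fold change was closest to 0. The window is the 250 bases before the RefSeq start of the gene in GRCm38.p6, written 5′ to 3′ on the strand of the gene. GENCODE M21 places the starts of Grn and Ctsd further upstream, so that 192 bases of the Grn window and 211 of the Ctsd window lie in the first exon there, downstream of the annotated start. For these genes only the 58 and 39 bases outside that exon are shown. Capitals mark CACGTG, the core of the element bound by TFEB and by related E-box factors.
Grn (chr11:102430257-102430314, plus strand): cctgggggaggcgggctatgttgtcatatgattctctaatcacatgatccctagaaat
Cd68 (chr11:69666171-69666420, minus strand): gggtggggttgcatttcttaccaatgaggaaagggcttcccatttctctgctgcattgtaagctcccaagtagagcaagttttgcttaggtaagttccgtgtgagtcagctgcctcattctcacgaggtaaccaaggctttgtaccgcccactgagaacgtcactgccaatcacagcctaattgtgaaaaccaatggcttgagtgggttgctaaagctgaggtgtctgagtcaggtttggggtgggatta
Ctsd (chr7:142388039-142388077, minus strand): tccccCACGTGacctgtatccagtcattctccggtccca
Lamp1 (chr8:13158911-13159160, plus strand): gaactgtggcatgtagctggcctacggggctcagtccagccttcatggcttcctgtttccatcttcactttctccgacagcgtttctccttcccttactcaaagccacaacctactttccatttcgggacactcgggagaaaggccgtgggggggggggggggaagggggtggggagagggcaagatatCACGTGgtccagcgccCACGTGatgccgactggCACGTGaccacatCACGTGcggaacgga
The Ctsd window holds the core at 2 places, 245 to 240 and 98 to 93 bases before the RefSeq start; the first is in the bases shown, and the other is in the GENCODE exon. Lamp1 holds it at 4 places within the last 61 bases before the start. The whole Grn and Cd68 windows hold no exact copy of the core. Only exact matches were searched, so near matches to the element are not counted in any promoter. Over windows of 300 bases, from 250 before the start to 50 after it, RefSeq promoters were found for 33 of the 37 members (39 promoters), and those of Ctsb, Ctsh, Npc1 and Asah1 were not matched. CACGTG, which reads the same on both strands, occurred in 13 of these 39 promoters (33.3%), against 2349 of 32851 promoters in the table (7.15%). The longer form TCACGTGA, which contains the core and is also the same on both strands, occurred in 5 of the 39 (12.8%), against 320 of all (0.974%). The 13 genes with a match were Ctsa, Ctsd, Ctsf, Ctsl, Lamp1, Gaa, Lgmn, Glb1, Cln3, Mcoln1, Gla, Sgsh and Arsa. Of these 13, Ctsd was called with 5xFAD below. A match describes letters, not a bound site.

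The members differed widely in level. Per length, in the authors' RPKM (reads scaled by gene length and library total) averaged over the 34 libraries, Psap, which encodes the precursor of the saposins that help hydrolases reach their lipid substrates, was highest at 476. Lamp1, a major glycoprotein of the lysosomal membrane, followed at 168, and the proteases Ctsb (134) and Ctsd (129) came next. The SDs of Ctsb and Ctsd over the libraries, 9.61 and 25.0, include differences between groups. In WT sham alone Ctsb averaged 130 (SD 6.19) and Ctsd 111 (SD 9.05). The order was the reverse in some carriers, as in 5xFAD sham 1 (Ctsb 133, Ctsd 158). The difference between these genes was not tested. Ctss stood at 92.7 (SD 15.1) and Ids, a sulfatase of heparan and dermatan sulfate, at 89.7 (SD 8.53). At the low end were Cln3 (2.15), Tfeb (2.04) and Sgsh (1.93), whose SDs of 0.446, 0.375 and 0.431 overlapped. The lowest raw count of any member in any library was 41 reads, for Cln3.

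Carriers of 5xFAD were compared with non-carriers across both treatments and both Dp16 states, to ask how the lysosomal genes respond to the amyloid transgenes. Of the members 4 rose: Grn 1.32-fold, Cd68 1.48-fold, Ctsd 1.24-fold and Ctsz 1.21-fold, and none fell. Grn encodes progranulin, a secreted and lysosomal glycoprotein; Cd68 is a glycoprotein of macrophage and microglial lysosomes; Ctsd is the main aspartic protease of lysosomes; and Ctsz is a cysteine carboxypeptidase. The effect was estimated with edgeR's quasi-likelihood test over all 34 libraries with sex as a covariate, as the mean of the 4 within-background differences, and called at an adjusted p under 0.05 over all genes tested. By this rule 74 of 17632 genes were called (0.42%), 34 of them higher (0.193%), against 4 of 37 members. At an unadjusted p under 0.05 stood 13 members, 11 higher and 2 lower, against 20.3% of all genes. DESeq2 and limma-voom each called 6 members, the same 4 with Man2b1 and Gaa, and 3.33% and 3.34% of all genes. Without the 4 libraries high in choroid plexus markers, edgeR called 9 members and 2465 of 17997 genes (13.7%): the same 4, Man2b1, Gaa, Psap and Npc1 higher and Gla lower. The log2 fold change was above 0 for 29 of the 37 members, with a median of 0.07, against a median of 0.00 over all genes.

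**Figure D1:**
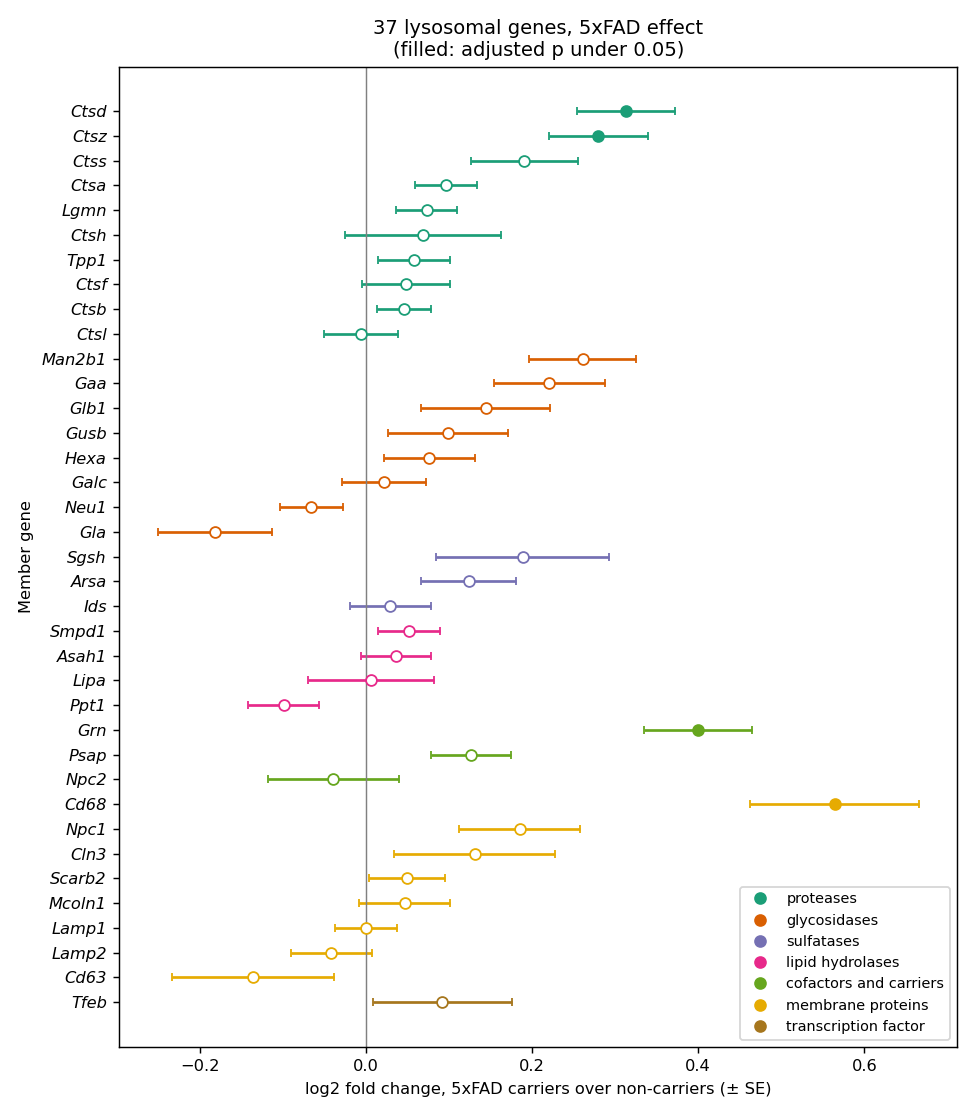
Log2 fold change of each of the 37 members between 5xFAD carriers (16 libraries) and non-carriers (18), with its SE, coloured and ordered by role. Filled points mark the 4 members with an adjusted p under 0.05 (Ctsd, Ctsz, Grn and Cd68).

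Among the proteases, Ctsd had the largest fold change. In non-carriers its levels were 254, 215, 240.1, 223 and 258 CPM in WT sham, 249.8, 256, 263, 248 and 219 CPM in WT tofacitinib, 268, 255 and 239 CPM in Dp16 sham, and 233, 239, 238, 259 and 253 CPM in Dp16 tofacitinib. In carriers they were 338, 332, 279 and 262 CPM in 5xFAD sham, 320.0, 448, 304, 302 and 250.5 CPM in 5xFAD tofacitinib, 249.8, 359 and 291 CPM in 5xFAD-Dp16 sham, and 312, 304, 305 and 248 CPM in 5xFAD-Dp16 tofacitinib. Of the 16 carriers, 12 lay above every non-carrier, and the other 4 fell within the non-carrier range. The log2 fold change was 0.31 (SE 0.059), with an adjusted p of 0.0104 in edgeR. The highest value, 448 CPM, belongs to the 5xFAD tofacitinib library with few cortex and many choroid plexus transcripts; without it and the WT sham library that stood apart, the log2 fold change was 0.27 (adjusted p 0.00782).

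Ctsz stood between 41.2 and 61.5 CPM in the 18 non-carriers, with a median of 52.7 CPM. In carriers it was 76.9, 82.5, 60.1 and 56.7 CPM in 5xFAD sham, 73.4, 82.0, 69.2, 64.1 and 55.0 CPM in 5xFAD tofacitinib, 58.6, 73.8 and 62.2 CPM in 5xFAD-Dp16 sham, and 61.4, 58.0, 55.0 and 52.2 CPM in 5xFAD-Dp16 tofacitinib. Of the 16 carriers, 8 exceeded every non-carrier, and all 4 5xFAD-Dp16 tofacitinib libraries lay within the non-carrier range. The log2 fold change was 0.28 (SE 0.060, adjusted p 0.0329 in edgeR). The call was lost in 11 of 34 fits that each left out 1 library, namely WT sham 2 or 4, 5xFAD sham 1 or 2, 5xFAD tofacitinib 1, Dp16 sham 2, Dp16 tofacitinib 2, 5xFAD-Dp16 sham 2 or 4, and 5xFAD-Dp16 tofacitinib 1 or 2, with estimates between 0.25 and 0.31 over all 34.

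In the fit over all libraries edgeR called none of the other 8 proteases; 1 of them, Ctss, was called without a low-count filter (adjusted p 0.0337) and with the length trend removed (adjusted p 0.0223). Ctss, an elastinolytic cysteine protease enriched in microglia, had a median of 130.02 CPM in carriers (109.9 to 180.2) and 115 CPM in non-carriers (94.0 to 146), and a log2 fold change of 0.19 (SE 0.065, adjusted p 0.128 in edgeR). Ctsa, the protective protein of Neu1 and Glb1, had a log2 fold change of 0.10 and Lgmn, the asparaginyl endopeptidase, one of 0.07. Ctsb was at 577 to 722 CPM in carriers and 534 to 657 CPM in non-carriers. Ctsl was at 90.7 to 134 CPM in carriers and 91.6 to 121 CPM in non-carriers, with a log2 fold change of -0.01. Ctsh, Tpp1 and Ctsf had log2 fold changes of 0.07, 0.06 and 0.05. Of the 10 proteases 9 had estimates above 0, and 4 stood at an unadjusted p under 0.05.

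Of the cofactors and carriers, Grn differed most. Its levels were 47.3, 27.9, 45.5, 37.1 and 41.8 CPM in WT sham, 34.8, 44.3, 48.7, 43.4 and 42.0 CPM in WT tofacitinib, 43.5, 37.9 and 37.8 CPM in Dp16 sham, and 38.3, 41.0, 40.1, 34.4 and 42.3 CPM in Dp16 tofacitinib. In carriers they were 55.5, 59.6, 50.3 and 54.8 CPM in 5xFAD sham, 63.7, 48.9, 47.8, 45.7 and 40.9 CPM in 5xFAD tofacitinib, 50.8, 64.0 and 51.7 CPM in 5xFAD-Dp16 sham, and 49.98, 58.2, 47.7 and 56.2 CPM in 5xFAD-Dp16 tofacitinib. All libraries of the 3 other carrier groups but 1 of 5xFAD-Dp16 tofacitinib lay above the highest non-carrier, whereas 3 of the 5 5xFAD tofacitinib libraries lay inside the non-carrier range. The log2 fold change was 0.40 (SE 0.065, adjusted p 0.00196 in edgeR). Psap had a median of 1368 CPM in carriers (1175 to 1605) and 1265 CPM in non-carriers (1045 to 1421), with a log2 fold change of 0.13 (adjusted p 0.154 in edgeR). Npc2, which hands cholesterol to Npc1, was at 66.8 to 147 CPM in carriers and 64.5 to 118 CPM in non-carriers, with a log2 fold change of -0.04.

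Among the 8 membrane proteins edgeR called Cd68 and, in the fit over all libraries, no other. Cd68 had the largest fold change of all 37. It was at 15.4, 6.55, 12.8, 10.2 and 16.4 CPM in WT sham, 16.1, 11.7, 15.6, 12.2 and 14.9 CPM in WT tofacitinib, 10.1, 10.8 and 15.3 CPM in Dp16 sham, and 13.7, 14.1, 11.7, 12.9 and 12.9 CPM in Dp16 tofacitinib. In carriers it was at 22.3, 23.0, 19.3 and 15.0 CPM in 5xFAD sham, 24.8, 22.0, 20.6, 20.6 and 13.6 CPM in 5xFAD tofacitinib, 15.9, 24.3 and 15.4 CPM in 5xFAD-Dp16 sham, and 19.3, 19.3, 15.0 and 16.4 CPM in 5xFAD-Dp16 tofacitinib. Of the 16 carriers, 10 lay above every non-carrier, and each carrier group had at least 1 library within the non-carrier range. The log2 fold change was 0.56 (SE 0.10, adjusted p 0.00672 in edgeR).

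**Figure D2:**
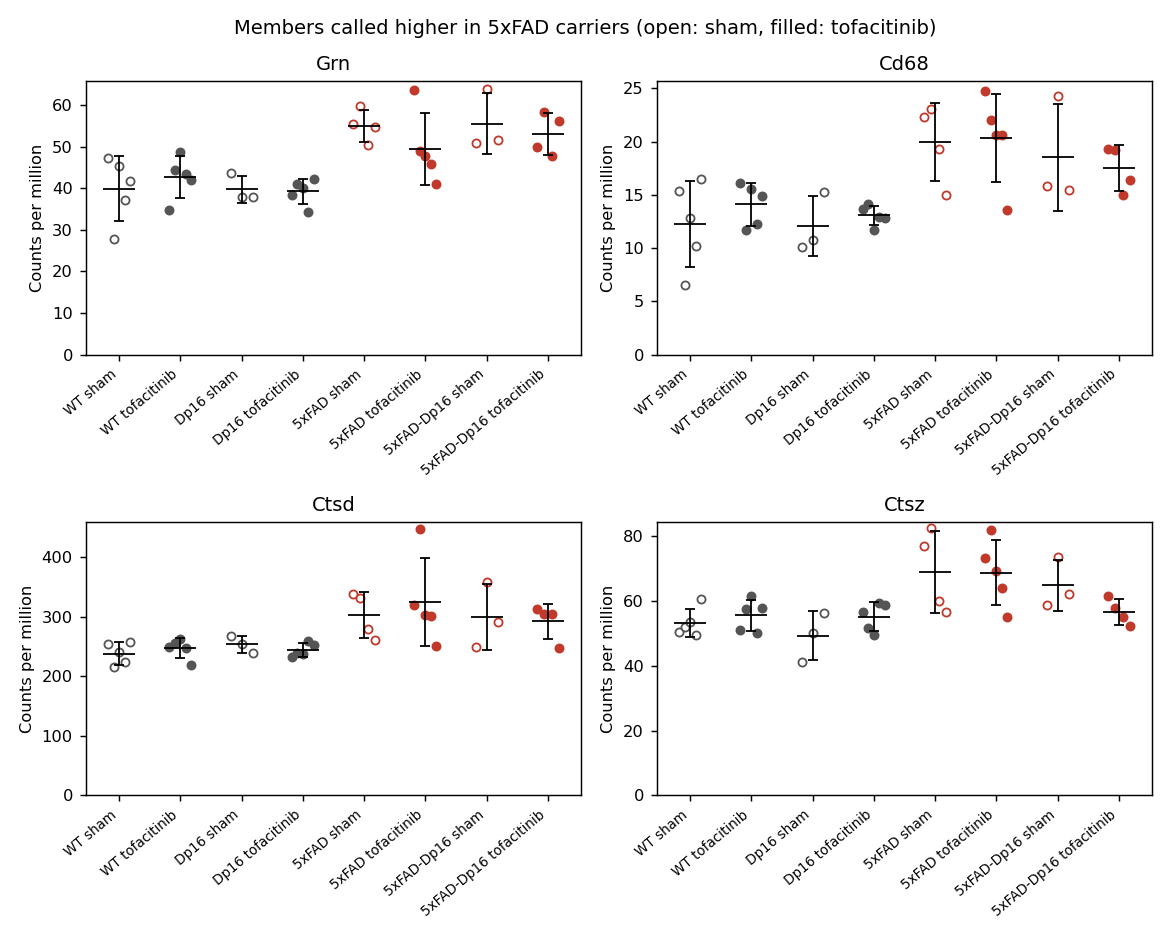
Level (CPM) of Grn, Cd68, Ctsd and Ctsz in each library, by group; the horizontal marks and bars are group means and SD, and carriers of 5xFAD are in red. The 4 carrier groups sit higher on average than the 4 groups without 5xFAD for each gene, with overlap between single libraries.

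Lamp1 was not called: its group means ran from 352 CPM in 5xFAD-Dp16 tofacitinib to 404 CPM in 5xFAD tofacitinib, and the log2 fold change was 0.00 (SE 0.038). Lamp2, its relative used for chaperone-mediated autophagy, ranged between group means of 70.3 CPM in 5xFAD sham and 82.3 CPM in WT sham, with a log2 fold change of -0.04 (SE 0.049). Npc1, the membrane cholesterol exporter, had a log2 fold change of 0.19 (adjusted p 0.163 in edgeR), and passed in edgeR without a low-count filter (adjusted p 0.0488) and without the 4 libraries high in choroid plexus markers (adjusted p 0.0295). Mcoln1, a calcium channel of the lysosomal membrane, had group means of 36.0 to 40.4 CPM and a log2 fold change of 0.05. Cd63, a tetraspanin of late endosomes, had a log2 fold change of -0.14 and an SE of 0.098. Scarb2, which carries glucocerebrosidase to lysosomes, was at 0.05 and Cln3, whose loss causes a juvenile storage disease, at 0.13.

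Over all libraries edgeR called none of the 8 glycosidases, whereas DESeq2 and limma-voom called Man2b1 and Gaa. Man2b1, an alpha-mannosidase of glycoprotein breakdown, came nearest with a log2 fold change of 0.26 (SE 0.064, adjusted p 0.0554 in edgeR). Its median was 40.2 CPM in carriers (32.5 to 51.1) and 34.8 CPM in non-carriers (26.2 to 41.2), and 6 of 16 carriers exceeded every non-carrier. It was called under 5 of 9 alternatives and in 8 of 34 fits that each left out 1 library, and Gaa under 4 of 9 and in 1 of 34. Gaa, the glycogen-degrading acid alpha-glucosidase, had a log2 fold change of 0.22 (adjusted p 0.103 in edgeR). Hexa, the alpha subunit of beta-hexosaminidase, was at group means of 54.0 CPM in WT tofacitinib to 67.4 CPM in 5xFAD-Dp16 tofacitinib, with a log2 fold change of 0.08. Gla, an alpha-galactosidase, was at a median of 13.4 CPM in carriers (10.8 to 16.8) and 15.0 CPM in non-carriers (10.6 to 18.4), with the most negative estimate of all members, -0.18 (adjusted p 0.152 in edgeR, and 0.0313 without the 4 libraries high in choroid plexus markers). Of the 8, 6 had estimates above 0. All 3 sulfatases and 3 of 4 lipid hydrolases also lay above 0 without a call; the exception was Ppt1, a palmitoyl-protein thioesterase, at -0.10. Tfeb itself had a log2 fold change of 0.09 (SE 0.084) and group means of 7.0 to 9.5 CPM.

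The 4 comparisons that make up the 5xFAD effect were read side by side. They share no library with each other, but their mean is the effect given above. In sham mice, 5xFAD against WT called 3 genes of 17632 (0.017%) and 0 members, with 17 members at an unadjusted p under 0.05 against 24.8% of all genes; DESeq2 called 10 members and 9% of all genes, and limma-voom 12 members and 15.9% of all genes, so the number of calls depended on the tool for members and for all genes. In tofacitinib mice, 5xFAD against WT called 3 genes (0.017%) and 0 members, with 12 members at an unadjusted p under 0.05 against 6.39% of all genes, and DESeq2 called 0 and limma-voom 2, with 2.4% of all genes. On the Dp16 background, 5xFAD-Dp16 against Dp16 called 1 gene in sham mice (0.00567%) and 0 members, with 4 members at an unadjusted p under 0.05 against 6.23%, and 1 gene in tofacitinib mice (0.00567%) and 0 members, with 6 against 4.62%. Neither DESeq2 nor limma-voom called a member in the latter 2. Cd68 had log2 fold changes of 0.70, 0.52, 0.61 and 0.42 in these comparisons, in the order just given. Grn had 0.47, 0.21, 0.48 and 0.44, and Ctsd 0.36, 0.39, 0.24 and 0.27. Ctsz had 0.38, 0.31, 0.40 and 0.04. Cd68, Grn, Ctsd, Ctsz, Ctss, Man2b1, Gaa, Psap, Gusb, Glb1, Smpd1 and Sgsh were above 0 in all 4. Cd63 differed in sign, at -0.46 and -0.35 in the sham comparisons of WT and Dp16 background and 0.29 and -0.03 in those with tofacitinib.

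**Figure D3:**
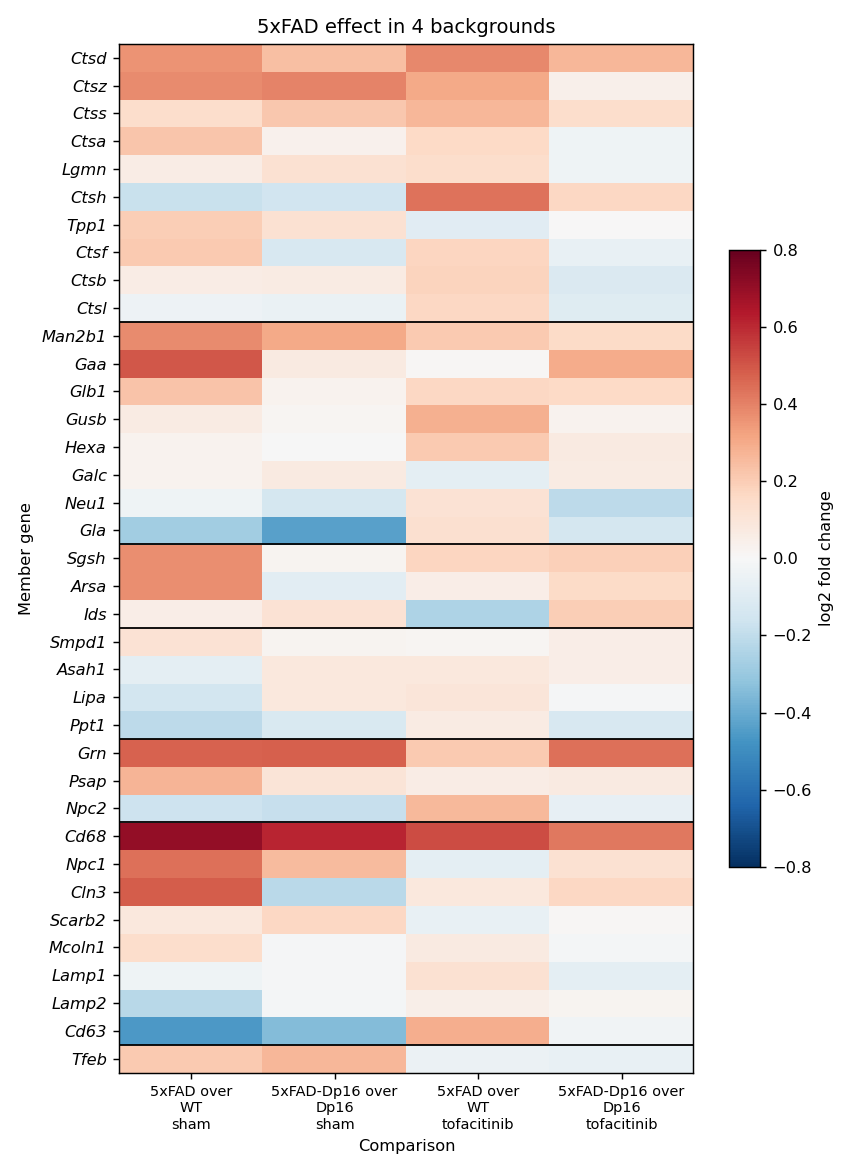
Log2 fold change of each member (rows, grouped by role with black lines) in the 4 comparisons of 5xFAD carriers with non-carriers of the same Dp16 state and treatment; red is higher and blue lower in carriers. The row of Cd68 is red throughout, at 0.42 to 0.70, and that of Cd63 changes from blue to red between sham (-0.46) and tofacitinib (0.29) for 5xFAD against WT and is below 0 in both comparisons on the Dp16 background.

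The differences between these effects were tested as interactions. For 5xFAD with Dp16, 1 gene was called (0.00567%) and 0 members. At an unadjusted p under 0.05 stood 5 members, against 4.35% of all genes. The 5 were Neu1 (-0.21), Ctsf (-0.28), Ids (0.25), Ctsa (-0.19) and Ctsb (-0.14). Estimates were above 0 for 10 of 37 members, with a median of -0.09. The matching values over all genes are not given here, so this lean cannot be called particular to the members. For 5xFAD with tofacitinib, 0 genes (0%) and 0 members were called by edgeR and DESeq2, with 5 members at an unadjusted p under 0.05 against 14.5%, whereas limma-voom called 9 members and 3771 genes (21.4%). Cd63 had the smallest p there, with an interaction estimate of 0.53 (SE 0.20, adjusted p 0.331 in edgeR). Its values in 5xFAD sham and 5xFAD tofacitinib are given under tofacitinib below. In the other groups it was at 58.3 to 96.3 CPM in WT sham, 46.1 to 89.8 in WT tofacitinib, 70.6 to 82.2 in Dp16 sham and 55.7 to 89.2 in Dp16 tofacitinib. The 5xFAD-Dp16 groups were at 50.4 to 68.6 CPM with sham and 61.4 to 87.5 CPM with tofacitinib. For Dp16 with tofacitinib, 0 genes and 0 members were called by all 3 tools, with 0 members at an unadjusted p under 0.05 against 2.33% of all genes.

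The per-library mean log2 CPM over the 37 members was 5.82 ± 0.083 in WT sham (SD, n = 5), 5.87 ± 0.026 in WT tofacitinib (n = 5), 5.88 ± 0.013 in Dp16 sham (n = 3) and 5.85 ± 0.034 in Dp16 tofacitinib (n = 5). In carriers it was 5.96 ± 0.070 in 5xFAD sham (n = 4), 5.99 ± 0.11 in 5xFAD tofacitinib (n = 5), 5.93 ± 0.077 in 5xFAD-Dp16 sham (n = 3) and 5.91 ± 0.0050 in 5xFAD-Dp16 tofacitinib (n = 4). The 4 carrier means lay above the 4 non-carrier means, and single libraries overlapped: carriers ran from 5.86 to 6.17 and non-carriers from 5.70 to 5.91. The highest library, 6.17, is the 5xFAD tofacitinib library that stood apart, and the lowest, 5.70, is the WT sham library that stood apart. By role, proteases averaged 6.66 ± 0.11 (SD) in carriers and 6.54 ± 0.063 in non-carriers. In the same order, cofactors and carriers averaged 7.52 ± 0.065 and 7.35 ± 0.073, and membrane proteins 5.84 ± 0.11 and 5.73 ± 0.099. Glycosidases averaged 5.19 ± 0.075 and 5.11 ± 0.056, and sulfatases 5.51 ± 0.12 and 5.39 ± 0.15. Lipid hydrolases averaged 5.81 ± 0.083 and 5.81 ± 0.052. These means pool unlike members. Log2 fold changes ran from -0.14 (Cd63) to 0.56 (Cd68) among membrane proteins. Among cofactors and carriers they ran from -0.04 (Npc2) to 0.40 (Grn).

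**Figure D4:**
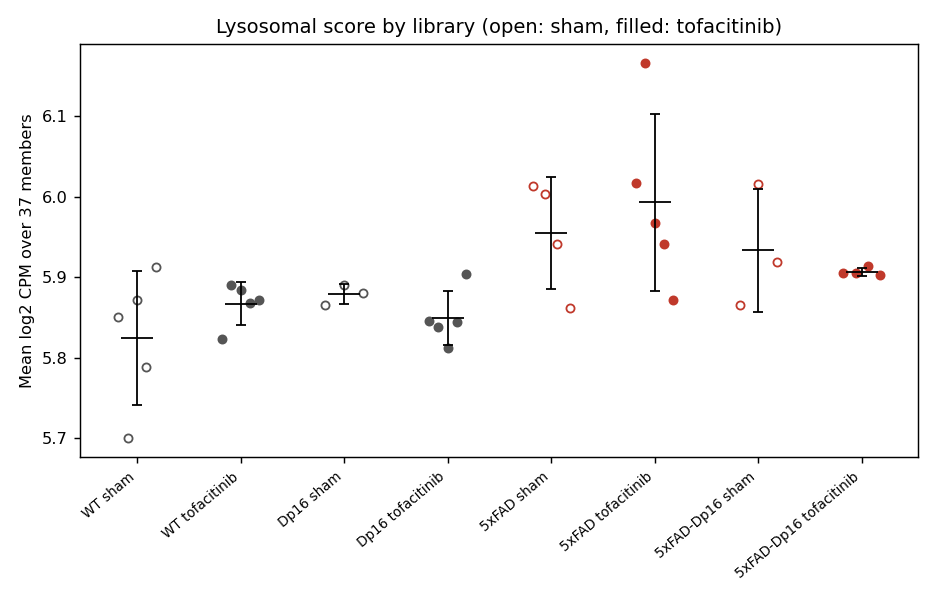
Mean log2 CPM of the 37 members in each library (points), with group mean and SD (bars); the axis does not start at 0. Carrier groups lie at 5.91 to 5.99 and the other groups at 5.82 to 5.88.

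Dp16 was compared with its absence over both 5xFAD states and treatments. Of 17632 genes 378 were called (2.14%), 172 of them lower (0.975%), against 0 members higher and 1 lower. The 1 was Npc1, at 44.2 to 71.0 CPM with a median of 60.1 CPM in 15 carriers of Dp16 and 49.3 to 96.2 CPM with a median of 70.1 CPM in 19 others. The ranges overlapped, and the log2 fold change was -0.27 (SE 0.075, adjusted p 0.0466 in edgeR). In 10 of 34 fits that each left out 1 library 1 member was called for Dp16, and in the other 24 fits 0; with the replicate number as a block, and without the 4 libraries high in choroid plexus markers, the count was also 0. At the level of single tests, 7 members stood at an unadjusted p under 0.05 against 13.7% of all genes. Tfeb had a log2 fold change of -0.22 (adjusted p 0.215), with 5.49 to 9.31 CPM in Dp16 carriers and 6.26 to 11.9 CPM in others. Striatal markers were also lower with Dp16: 7 of 7 were below 0 (median log2 fold change -0.62), 6 of them at an unadjusted p under 0.05 and none called, and their summed level was 324 to 1672 CPM in Dp16 carriers and 461 to 2259 CPM in others. Of other markers, Lyz2 (0.55) was called higher, and P2ry12 of microglia (-0.21), Cnp of oligodendrocytes (-0.25) and Cdh5 of endothelium (-0.27) lower. The last 3 come from lists of 13, 7 and 5 genes, whose summed levels overlapped. Microglial identity genes were at 474 to 675 CPM in Dp16 carriers and 516 to 766 CPM in others. Oligodendrocyte genes were at 5590 to 9866 and 5849 to 14171 CPM, and endothelial genes at 185 to 262 and 183 to 292 CPM. The part of all these markers in the Npc1 difference was not tested. In sham mice alone, Dp16 against WT called 37 genes (0.21%) and 0 members, with 3 members at an unadjusted p under 0.05 against 7.27%, and 5xFAD-Dp16 against 5xFAD called 18 genes (0.102%) and 0 members, with 1 against 3.84%. In 5xFAD-Dp16 against WT, also in sham mice, 64 genes were called (0.363%) and 0 members, with 10 members at an unadjusted p under 0.05 against 14.9%; DESeq2 called 0 members and limma-voom 2, with 3.88% of all genes. These 3 comparisons share control groups with those above, so their values are not independent of them.

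Tofacitinib against sham was compared over all genotypes and within each. Across genotypes, 0 genes (0%) and 0 members were called by edgeR, with 1 member at an unadjusted p under 0.05 against 3.36% of all genes; DESeq2 called 1 gene and 0 members and limma-voom 0 of either. The 1 member was Asah1, an acid ceramidase, at a log2 fold change of 0.09 (adjusted p 0.935). Within WT, Dp16, 5xFAD and 5xFAD-Dp16, 0 members were called in each by edgeR (0 genes each), with 2, 0, 5 and 0 members at an unadjusted p under 0.05 against 7.3%, 2.05%, 14.8% and 1.92% of all genes. DESeq2 called 0 members in each, and limma-voom 0 in 3 and 7 (18.9% of members) in 5xFAD, where it called 17.2% of all genes. In 5xFAD the smallest p was that of Cd63, with a log2 fold change of 0.54 (SE 0.19, adjusted p 0.320), followed by Npc2 at 0.36 (SE 0.15). The Cd63 values were 57.5, 59.3, 52.4 and 55.1 CPM in sham and 54.0, 131, 75.2, 74.7 and 76.0 CPM with tofacitinib; the library at 131 CPM is the one with choroid plexus markers at 1499 CPM. It was also highest of its group for Npc2 (147 CPM, others 73.3 to 91.5 CPM). For tofacitinib in 5xFAD, 1 member and 1322 of 17458 genes stood at an unadjusted p under 0.05 without this library and WT sham 2. Without the 4 libraries high in choroid plexus markers, 1 member and 1243 of 17997 genes did.

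Female and male mice were compared for the 5xFAD effect, since both sexes are present in each group. For this interaction 0 genes (0%) and 0 members were called by edgeR, DESeq2 or limma-voom, with 6 members at an unadjusted p under 0.05 against 3.19% of all genes. All 6 had a larger estimate in females, as did 30 of 37 members, with a median of 0.12 against -0.01 over all genes. Both libraries that stood apart, WT sham 2 and 5xFAD tofacitinib 2, are from females. Without them, 3 members and 530 of 17458 genes stood at an unadjusted p under 0.05 in edgeR. With all libraries, the member count was 3 with limma-voom, 2 with the replicate block, 6 with DESeq2 and 7 with the length trend removed. Gusb, a beta-glucuronidase, had the smallest p: its interaction estimate was 0.46 (SE 0.12, adjusted p 1). Gusb was at 15.8 to 26.0 CPM in 7 female carriers (median 19.5) and 15.0 to 19.6 CPM in 9 male carriers (median 15.4), and at 13.7 to 17.6 CPM in 9 female non-carriers (median 15.0) and 14.4 to 20.2 CPM in 9 male non-carriers (median 16.6). The highest of these is the 5xFAD tofacitinib library that stood apart. The others were Ctsz (0.34), Cd68 (0.48), Ctsa (0.16), Ctsd (0.25) and Tpp1 (0.18). Cell type markers had estimates of the same sign: 13 of 13 microglial identity genes (median 0.21), 9 of 10 plaque-associated microglial genes (median 0.31), 7 of 7 astrocyte genes (median 0.18) and 7 of 7 oligodendrocyte genes (median 0.23). Of 7 neuron markers 1 was above 0, and of 5 choroid plexus markers 0 (median -1.15). Thy1 was at 2066 ± 388 CPM (SD, n = 7) in female carriers and 1735 ± 184 CPM (n = 9) in male carriers. The part of these in the members' estimates was not tested.

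Other genes of the pathway were counted over lists that extend the members. Counts at an unadjusted p under 0.05 below stand against 20.3% of all genes. Of 38 further hydrolases and lysosomal proteins tested, 14 stood at that p, 9 higher and 5 lower, and edgeR called 1 higher with 5xFAD and 0 lower: Laptm5, a lysosomal membrane protein of immune cells, at 57.4 ± 8.72 CPM (SD, n = 16) in carriers and 43.8 ± 7.87 CPM (n = 18) in non-carriers, with a log2 fold change of 0.41 (adjusted p 0.0149 in edgeR). Of 18 subunits of the proton pump, 0 were called; 7 stood at an unadjusted p under 0.05 with lower values in carriers and 1 with higher, and 5 of the 18 had estimates above 0. Atp6ap2, an accessory subunit, was at -0.12 (adjusted p 0.0977). Of 16 genes of the TFEB family and mTORC1 nutrient arm, 0 were called, and 8 stood at an unadjusted p under 0.05, 3 higher and 5 lower. Of 12 enzyme sorting genes, 0 were called, and 8 stood at that p, 4 higher and 4 lower. Of 14 autophagy genes, 0 were called, and 8 stood at that p, 1 higher and 7 lower. Of 4 cathepsin inhibitors, Cst7, an intracellular cystatin, was called: it was at 0.0497 to 14.2 CPM in carriers (median 5.99) and 0 to 0.935 CPM in non-carriers (median 0.0896), with a log2 fold change of 5.42 (SE 0.59, adjusted p 1.35e-06 in edgeR). The other 3 inhibitors had negative estimates. For the overall Dp16 and tofacitinib effects, edgeR called 0 genes of these 6 lists.

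Some markers of microglia were also called with 5xFAD. Of 13 microglial identity genes 1 was called, Csf1r, a receptor that microglia need to survive, at 86.9 to 136 CPM in carriers and 64.0 to 112 CPM in non-carriers (log2 fold change 0.31, adjusted p 0.0378 in edgeR). Summed over the 13, the level was 542 to 766 CPM in carriers and 474 to 666 CPM in non-carriers. Of 10 plaque-associated microglial genes, 9 had estimates above 0 (median log2 fold change 0.41), 7 stood at an unadjusted p under 0.05 with higher values in carriers and 1 with lower, and 4 were called: Cst7, which is also in the inhibitor list, Clec7a, Itgax and Ccl6. The mean log2 CPM over the tested genes of the plaque-associated list was 2.75 to 4.72 in carriers (median 3.87) and 2.30 to 3.02 in non-carriers (median 2.60). The summed level of the 10, which the most abundant genes dominate, was 2159 to 3831 CPM in carriers and 2247.5 to 3544 CPM in non-carriers. Clec7a, a pattern receptor, was at a median of 3.97 CPM in carriers and 0.555 CPM in non-carriers. Of 7 perivascular macrophage markers, 0 were called, and their summed level was 4.36 to 9.95 CPM in carriers and 5.46 to 10.5 CPM in non-carriers. None of the 4 tested blood monocyte and neutrophil markers was called. No listed marker was at 0 in every library. The part of these cell types in the member differences was not tested.

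The members' levels were set beside the mean log2 CPM of the 13 microglial identity genes within each stratum, in a family of 74 relations (37 members, 2 strata). Libraries were shuffled freely within a stratum. Differences between its groups and sexes were not removed, so the correlations and their p-values include them. Among the 16 carriers, 9 members passed a Benjamini-Hochberg adjusted p of 0.05 for Pearson's r by permutation. In the 18 non-carriers, 4 did. The relations of all other genes were not computed, so these counts cannot be read as particular to the members. Ctsd gave the highest r in carriers (r = 0.84, permutation p 3e-05, adjusted 0.00222; rho = 0.806, p 0.00027, adjusted 0.00999), and r was 0.80 without the 2 libraries farthest from the median. Ctss gave r = 0.773 (permutation p 0.00052, adjusted 0.0113; rho = 0.829, p 0.00021, adjusted 0.00999; r = 0.747 without the 2). Ctsz gave r = 0.763 (permutation p 0.00061, adjusted 0.0113; rho = 0.776, p 0.00059, adjusted 0.0146; r = 0.635 without the 2). For Grn r was 0.084 (permutation p 0.759, adjusted 0.877) and rho 0.0294 (p 0.918, adjusted 0.957), and r was 0.145 without the 2. Cd68 gave r = 0.588 (permutation p 0.0169, adjusted 0.0834), rho = 0.524 (p 0.0398, adjusted 0.14) and r = 0.537 without the 2. Among non-carriers, Ctss gave r = 0.649 (permutation p 0.0036, adjusted 0.0333; rho = 0.659, p 0.00384, adjusted 0.0384; r = 0.593 without the 2) and Grn r = -0.0907 (permutation p 0.719, adjusted 0.877; rho = -0.209, p 0.403, adjusted 0.563; r = -0.315 without the 2). The relations of Ctsd (r = 0.287, adjusted permutation p 0.446), Ctsz (r = 0.509, adjusted 0.133) and Cd68 (r = 0.33, adjusted 0.364) did not pass there. Lamp1 gave the highest r in non-carriers, 0.738 (adjusted permutation p 0.0113), with rho = 0.614 (adjusted 0.0648).

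**Figure D5:**
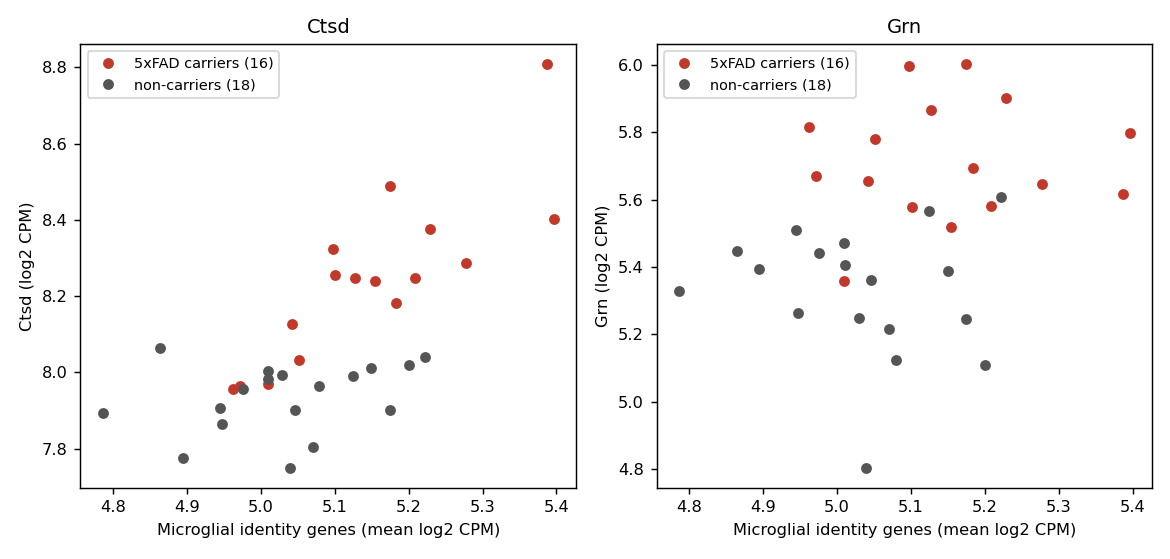
Log2 CPM of Ctsd (left) and Grn (right) against the mean log2 CPM of 13 microglial identity genes, 1 point per library, with 5xFAD carriers in red and non-carriers in grey. Ctsd in carriers has r = 0.84, whereas Grn in carriers has r = 0.084 and lies mostly above the non-carriers.

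Positions, from GENCODE M21 on GRCm38, are as follows for the 4 called members. Grn (ENSMUSG00000034708.11) is the gene at chr11:102430315-102437048 on the plus strand, and Cd68 (ENSMUSG00000018774.13) is at chr11:69664213-69666153 on the minus strand. Ctsd (ENSMUSG00000007891.16) is at chr7:142375911-142388038 and Ctsz (ENSMUSG00000016256.10) at chr2:174427493-174439039, both on the minus strand.  Grn overlaps Fam171a2 and Ctsz overlaps Nelfcd on the opposite strand, and Ctsd overlaps Gm49369 on the same strand. The library preparation marked strand, but the strand setting of the counting is not given in the sources used here. Reads of the overlapping stretches may therefore have been assigned to either gene or to neither. Strand cannot separate Ctsd from Gm49369.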

How the data were processed

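RNA from mouse cortex was measured by strand-specific poly-A sequencing in 34 libraries. Per the submitters' processing notes, the tools were FastQC 0.11.5, HISAT2 2.1.0, HTSeq 0.6.1, SAMtools 1.5 and bcl2fastq on build GRCm38, with no role given. The authors deposited whole-number counts per gene, and RPKM computed from them; recomputing the RPKM gave a largest relative difference of 9.10e-15 over 713471 values. The test was edgeR's (4.0.16, under R 4.3.3) quasi-likelihood F-test on those counts, after filterByExpr and TMM, with a term for each of 8 groups plus sex, and Benjamini-Hochberg adjustment over 17632 genes. Mean log2 CPM used a prior count of 2. Alternatives were DESeq2 1.42.0, limma-voom 3.58.1 with sample weights, no filter, DESeq2 size factors, no sex term, a replicate block, removal of the trend with gene length, the groups compared alone, leaving out libraries, and, added after the data were seen, leaving out the 4 libraries with choroid plexus markers over 400 CPM. Correlations used 100000 permutations (scipy 1.17.1, numpy 2.4.6). The tests were tried on simulated data. The text names called members (at most 12 per comparison by adjusted p), a panel of 14 members whatever their change, and at most 4 called genes of each other list; other names were chosen after their values were seen. The members and lists were chosen with earlier results of these data known.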

Additional observations from a re-analysis of the deposited data

Results flagged for a closer look

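In groups of 4 or 5 libraries, 18 of 222 member-by-group sets held 1 library far from the others by Dixon's criterion. The criterion gives about 5% for independent normal values, and the share over all genes is not given here. Members of 1 library are not independent, and the 18 fall in 11 libraries. Library 2 of 5xFAD tofacitinib was highest for Lamp1 (487 CPM, others 371 to 399.6), Lamp2 (98.5, others 70.8 to 77.8), Cd63 (131, others 54.0 to 76.0), Npc2 (147, others 73.3 to 91.5) and Gusb (26.0, others 15.0 to 17.8); it is the library with choroid plexus markers at 1499 CPM. Library 1 of that group was highest for Npc1 (96.2 CPM, others 61.3 to 70.7).

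In 5xFAD-Dp16 tofacitinib, Ctsd was low in library 4 (248 CPM, others 304 to 312), Tpp1 low in library 1 (53.0, others 56.5 to 56.9) and Gla high in library 3 (16.8, others 12.02 to 12.6). In 5xFAD sham, library 1 was high for Gusb (19.9 CPM, others 15.3 to 15.4) and Tpp1 (63.5, others 58.5 to 59.2), library 2 high for Ids (465.9, others 455 to 457) and library 4 low for Man2b1 (34.05, others 47.2 to 49.4). In WT tofacitinib, library 1 was high for Ctsh (20.6 CPM, others 13.4 to 15.2) and low for Tpp1 (44.2, others 58.2 to 62.5), library 2 high for Neu1 (58.1, others 46.3 to 48.5), and library 3 high for Hexa (60.2, others 51.5 to 53.6) and low for Galc (19.3, others 25.6 to 27.8).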

How the results depend on the processing

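Grn, Cd68 and Ctsd were called higher with 5xFAD under all 9 alternatives and all 34 fits without 1 library, and Ctsz under all 9 and in 23 of 34. Genes called for 5xFAD overall (74) numbered 587 with DESeq2, 589 with limma-voom, 1358 without a filter, 17 with the replicate block, 123 with the length trend removed and 15 to 293 leaving out 1 library; members (4) numbered 8 without a filter. Without the 4 libraries high in choroid plexus markers, an alternative added after seeing the data, 2465 genes and 9 members were called for 5xFAD over all groups and 252 genes and 0 members for Dp16, and 719 genes and 5 members for 5xFAD against WT in sham mice. For Dp16 overall (378 genes, 1 member) limma-voom gave 1760 and 2, no filter 672 genes, the replicate block 206 and 0, and the fit without WT sham 2 and 5xFAD tofacitinib 2 669 genes; leaving out 1 library gave 0 to 1 members. For tofacitinib overall (0 genes) DESeq2 gave 1 and no filter 51.

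Members called in 5xFAD against WT in sham mice (0) numbered 10 with DESeq2 (1587 of all genes), 12 with limma-voom (2806), 8 without a filter (1784), 3 without sex (468), 4 with the length trend removed (223), 5 with the compared groups alone (1428) and 0 to 10 leaving out 1 library, with calls without WT sham 3, WT tofacitinib 1, 5xFAD tofacitinib 1 or 5xFAD tofacitinib 2. With limma-voom members called numbered 2 for 5xFAD against WT in tofacitinib mice (424 of all genes), 2 for 5xFAD-Dp16 against WT (685), 7 for tofacitinib in 5xFAD (3038) and 9 for 5xFAD with tofacitinib (3771), and without a filter 2 (873), 1 (642) and 1 (675) for the last 3; leaving out 1 library gave 0 to 1 for tofacitinib in 5xFAD (1 without 5xFAD tofacitinib 1).

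Signs changed near 0 for uncalled members: Lamp1 was 0.0013 without a filter, 0.00085 without sex, 0.0354 with the length trend removed and -0.0217 to 0.01002 leaving out 1 library; Lipa was -0.000234 with DESeq2, -0.0334 with limma-voom, -0.000240 with DESeq2 size factors, -0.0116 with the replicate block, -0.0397 without both libraries, -0.0727 without the 4 and -0.0330 to 0.0276 leaving out 1; Ctsl was -0.0317 to 0.0215 leaving out 1; Ctsh was -0.0125 without the 4; Ids was -0.0155 with the length trend removed. With that trend removed, mean log2 CPM was 5.82 in Dp16 sham, 5.80 in Dp16 tofacitinib and 5.88 in 5xFAD-Dp16 tofacitinib. The cause was not tested. Same-numbered libraries did not deviate together (98 pairs, median r -0.04, 5 over 0.1), against a median r of 0.01 for different numbers (405 pairs, 63 over 0.1). The deviations were taken after group means and sex were removed. They cannot decide whether the replicate numbers mark litters or batches.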
